A study of Mus musculus with 23 samples.

Results

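The Klhl, Kbtbd and Kctd genes encode large groups of BTB proteins that serve as substrate adaptors of CUL3, a cullin that carries the RING protein RBX1 and thereby forms a ubiquitin ligase. The members described here were all protein-coding genes of the GRCm39 annotation whose symbol is Klhl, Kbtbd or Kctd followed by a number and at most 1 letter, and that had at least 10 raw counts in at least 10 of 23 libraries. Of 68 genes with such a symbol, 56 met this rule, 29 of 37 Klhl, 7 of 9 Kbtbd and 20 of 22 Kctd genes, out of 56941 genes in the count tables. The rule used the counts of all libraries together and no difference between conditions, but a gene could meet it through the libraries of a single condition.

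As background, a Klhl or Kbtbd protein binds CUL3 through its BTB and BACK domains and holds its substrate with Kelch repeats, so that each adaptor gives the ligase another set of targets. Kctd proteins carry a related tetramerisation-type BTB domain. Several of them are CUL3 adaptors, while others are better known as partners of membrane receptors, channels or transcription factors. The ligase itself becomes active once Nedd8, a small ubiquitin-like protein, is attached to the cullin, and this step is neddylation. In neurons, adaptors of these families are known from actin organisation, from the turnover of RhoA and of WNK kinases, and from GABA-B and kainate receptor complexes.

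The study asked how loss of Nedd8 changes the transcriptome of hippocampal neurons. Both groups came from hippocampi of homozygous Nedd8cKO mice at postnatal day 0, so that controls carried the same loxP-flanked *Nedd8* alleles. RFP neurons (11 libraries) received a lentivirus encoding red fluorescent protein, and CRE neurons (12 libraries) one encoding CRE recombinase fused to RFP, both under the Synapsin1 promoter, which is active in neurons. RNA was taken after 12 days in culture according to the labels, and the methods text gives 1 day more. A library name such as CRE 1-3 holds a number from 1 to 3, read here as a culture number, and a rep number. The sources do not say in words what reps are. The study counts its replicates as animals or biological replicates and gives as many of them as there are culture numbers, so libraries of 1 number may be repeats of 1 biological replicate, and p-values over 21 libraries measure the spread between libraries. Results with counts summed per culture are therefore given as well. The protocol plated a pair of hippocampi per dish, and whether animals were pooled for RNA was not stated.

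The comparison used 21 libraries, 11 CRE and 10 RFP, which is the set of the study's count table and leaves out CRE 3-3 and RFP 3-2. Gene counts summed to between 7430401 and 17112815 per library in this set. Libraries that stood apart were CRE 3-3 with 1546796 counts, RFP 3-2, in which *Rn18s-rs5* (ribosomal RNA) took 24.2% of all counts, and CRE 1-3 and RFP 2-4, in which mitochondrial transcripts took 0.261% and 3.44% of the counts against 6.997% to 11.1% in the other libraries of the comparison, and in which log levels relative to the other libraries correlated with the GC content of the genes (Spearman's rho across genes 0.735 and 0.415). Results are therefore also given for all 23 libraries and for 19 libraries without these 4. *Nedd8* ran from 44.1 to 76.0 CPM in RFP and from 5.92 to 18.0 in CRE libraries of the comparison. CPM here and below are counts scaled to library totals after TMM scaling, which corrects these totals for differences in composition. Markers of neurons were present in every library, yet 4 of 6 were lower in CRE neurons and their summed level ran from 1948 to 4426 CPM against 4407 to 5636 in RFP neurons. Of 6 markers of glutamatergic neurons, 4 were lower and 1 was higher (summed level 668 to 1423 against 1983 to 3934 CPM). For 6 markers of GABA neurons 1 was lower and 1 higher (798 to 1788 against 1083 to 2274 CPM), and for 6 markers of astrocytes 2 were lower and 1 higher (1322 to 4279 against 2987 to 6177 CPM). Markers of the oligodendrocyte lineage were lower in 4 of 6 cases (395 to 1900 against 628 to 1813 CPM), and those of dividing cells in 6 of 6 (4.22 to 154 against 143 to 256 CPM). Microglia markers summed to at most 7.70 CPM in any library of the comparison, with 1 of the 2 tested higher, and 1 of the 4 tested endothelial and mesenchymal markers was higher (11.8 to 195 against 15.1 to 94.0 CPM). The part of these shifts in the results on the members was not tested, and in bulk RNA fewer cells of a type cannot be told apart from less RNA per cell. The groups are called RFP and CRE neurons here, although the libraries also held RNA of other cells. Which cells the RNA of a member came from was not tested.

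All 56 members passed the expression filter of edgeR, and 21 of them (37.5%) had an adjusted p under 0.05 from its quasi-likelihood test, adjusted by Benjamini-Hochberg over the 14488 genes tested. Among all genes tested, 30.2% were called in this way. By direction, 8 members (14.3%) were higher in CRE neurons, against 16.4% of all genes, and 13 members (23.2%) were lower, against 13.8%. *Kctd8*, *Kctd11*, *Klhl21*, *Kctd12b*, *Klhl36*, *Klhl24*, *Kctd7* and *Klhl18* were the higher ones, in falling order of their log2 fold change from 1.40 to 0.40. *Kctd4*, *Klhl23*, *Kctd13*, *Klhl34*, *Kctd3*, *Kctd12*, *Klhl2*, *Klhl3*, *Kbtbd11*, *Klhl13*, *Kctd16*, *Kbtbd7* and *Kctd5* were the lower ones, with log2 fold changes from -2.04 to -0.35. The median log2 fold change over the 56 members was -0.05, beside 0.02 over all genes, and the median of its size was 0.40 beside 0.32. By family, 4 Klhl members were higher and 5 lower, 4 Kctd members were higher and 6 lower, and 2 of 7 Kbtbd members were lower with none higher.

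**Figure D1:**
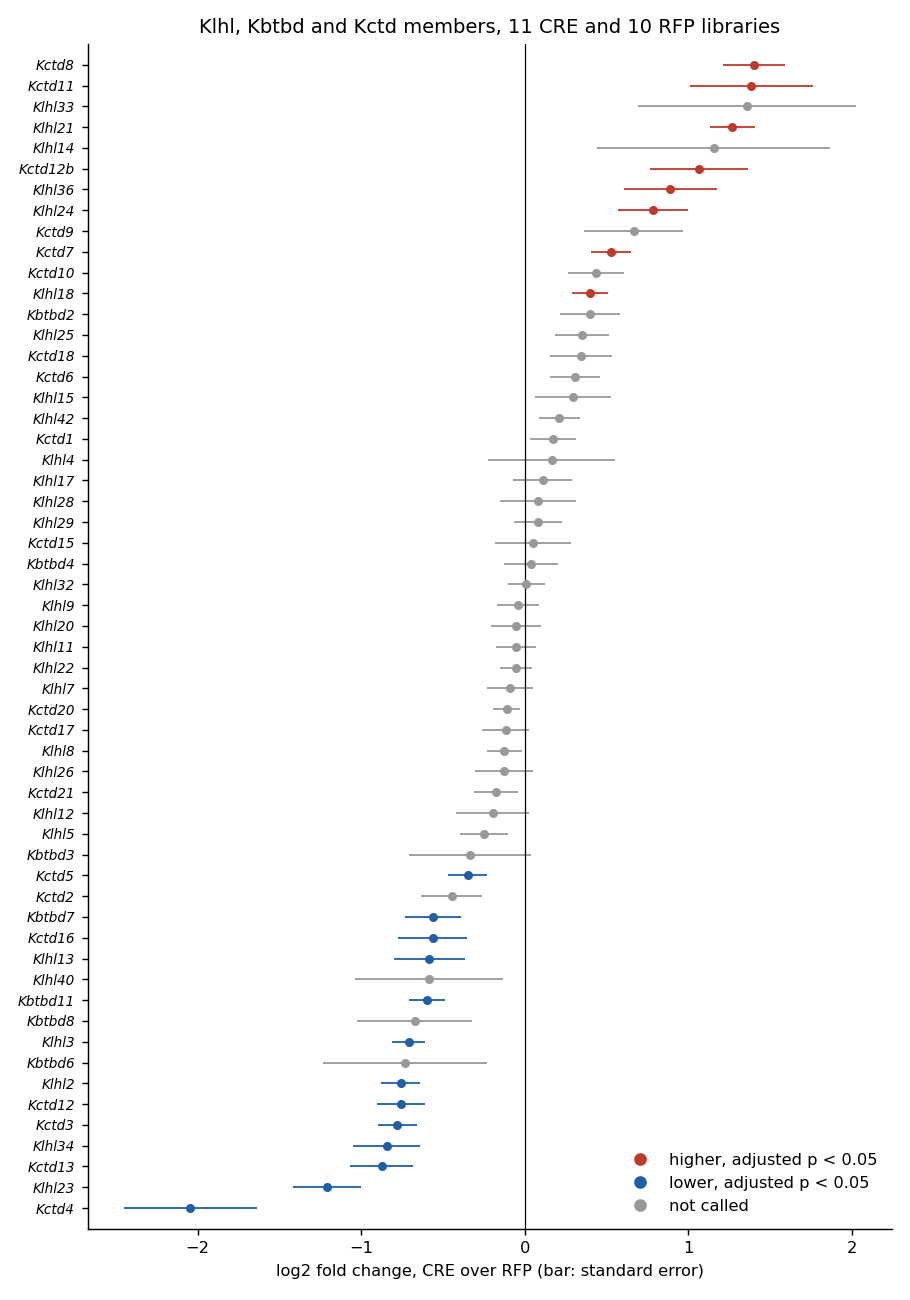
The log2 fold change of CRE over RFP neurons is plotted for each of the 56 members, with bars for its standard error, and colours mark members with an adjusted p under 0.05. The 8 higher members lie between 0.40 and 1.40 and the 13 lower ones between -2.04 and -0.35, while *Klhl33* and *Klhl14* have large values with long bars and were not called.

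Without the 4 libraries that stood apart, 12 members were higher and 17 lower, while 19.4% of all genes were higher and 18.7% lower. Over all 23 libraries the counts were 9 and 10, beside 16.4% and 11.8% of all genes. The share of all genes moved with the setting too. With the libraries left by the methods text 12 members were higher and 16 lower, beside 20.2% and 17.8% of all genes, and with the GC trend of each library removed and the 4 libraries left out 11 and 15, beside 19.7% and 19.2%. With culture as a block they were 8 and 12, beside 15.9% and 13.5%, and without a filter on low counts 8 and 10, beside 13.4% and 7.81%. Without culture 2 the counts were 5 and 7 of 55, beside 8.89% and 5.45%. With counts summed per culture they were 8 and 13, beside 11.8% and 11% of all genes, but *Kctd11*, *Klhl36*, *Kctd16* and *Kctd5* lost their call and *Kbtbd2*, *Kctd9*, *Kbtbd8* and *Kctd2* gained one. The calls of *Kctd8*, *Klhl21*, *Klhl23*, *Klhl2*, *Klhl3*, *Kctd3*, *Kctd12* and *Kbtbd11* were made in each of 15 alternative settings of the libraries, the model and the scaling. No called member changed sign in any of them. When an absolute log2 fold change over 1.3 and an adjusted p with a -log10 over 6 were both required, 0 of 56 members passed with edgeR and 1 with DESeq2, *Kctd8*, against 1.39% and 3.79% of all genes. With the unadjusted p of edgeR in its place *Kctd8* passed too (p = 5.97e-08), against 2.49% of all genes. At the lenient end 26 members had an unadjusted p under 0.05 from edgeR, as did 39.5% of all genes.

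All values from here on are the lowest, the median and the highest library of each group in the same TMM-scaled CPM, and log2 fold changes are CRE over RFP from edgeR. The groups did not overlap for 4 of the 56 members (7.14%), against 4.72% of all genes. *Kctd8* and *Klhl21* were the 2 members with every CRE library above every RFP library (3.57%, against 2.64% of all genes), and *Klhl2* and *Klhl23* the 2 with every CRE library below (3.57%, against 2.08%).

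*Kctd8* encodes an auxiliary subunit of the GABA-B receptor and lies on chromosome 5 from 69266628 to 69499057 on the minus strand of GRCm39. It had 4.64, 7.41 and 11.8 CPM in RFP neurons and 15.8, 21.3 and 29.0 CPM in CRE neurons. The change on the log2 scale was 1.40 (standard error 0.19, edgeR adjusted p = 2.43e-06), and both libraries outside the comparison lay within their group, at 23.9 CPM in CRE 3-3 and 6.47 in RFP 3-2. *Klhl21*, on chromosome 4 from 152093260 to 152102138, encodes an adaptor that directs the Aurora B kinase in dividing cells. In RFP neurons it had 17.7, 25.1 and 30.7 CPM, and in CRE neurons 43.7, 61.6 and 106 CPM. This log2 fold change was 1.27 (standard error 0.14, edgeR adjusted p = 1.57e-07), the smallest p of all members. The highest library was CRE 1-3 and the next highest had 70.4 CPM, so that the gap between the groups did not rest on it. Without the 4 libraries the log2 fold change was 1.15 (edgeR adjusted p = 5.69e-09).

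*Klhl23*, on chromosome 2 from 69652265 to 69667645, had 159, 197 and 223 CPM in RFP neurons and 11.9, 93.8 and 110 CPM in CRE neurons. The lowest value was that of CRE 1-3, and the other CRE libraries had at least 75.7 CPM. A log2 fold change of -1.21 (standard error 0.21, edgeR adjusted p = 6.49e-05) became -1.12 without the 4 libraries (edgeR adjusted p = 5.87e-12). *Klhl2* (Mayven), an actin-binding adaptor that also takes WNK kinases to CUL3, lies on chromosome 8 from 65192706 to 65303087. It had 89.9, 114 and 138 CPM in RFP neurons and 45.6, 72.6 and 85.6 CPM in CRE neurons. The log2 fold change of *Klhl2* was -0.76 (standard error 0.12, edgeR adjusted p = 2.63e-05).

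The promoters of the members whose groups did not overlap are shown because these members separated the conditions in the 21 libraries compared, and CRE 3-3 and RFP 3-2 lay on the same sides. For *Klhl21* the 250 bases before the start of the canonical transcript lie in annotated exons, and they are not printed. The other stretches were read from GRCm39 in the direction of the gene and end at the base before the transcript start, and capitals mark a match to 1 of 3 motifs searched on both strands: TGACNNNGC, known from NRF2 binding, TGACGTCA, the palindrome bound by CREB and ATF factors, and the E-box CACGTG. TGACGTCA was found upstream of *Kctd8* alone, 1 of the 56 members (1.79%), at chr5:69499058-69499307, near the 1.68% of 21667 protein-coding promoters of this length that hold it. Neither of the other stretches, chr8:65303088-65303337 and chr2:69652464-69652713, had a match. The latter, of *Klhl23*, lies within the annotated gene, which starts at 69652265, but in no annotated exon. Over all members, TGACNNNGC was found in 8 of 56 promoters (14.3%, against 9.67% of all). It was in 0 of the 8 of members called higher and in 1 of the 13 of members called lower (7.69%). CACGTG was found in 4 of the 56 (7.14%, against 6.28%).
Kctd8 (minus strand): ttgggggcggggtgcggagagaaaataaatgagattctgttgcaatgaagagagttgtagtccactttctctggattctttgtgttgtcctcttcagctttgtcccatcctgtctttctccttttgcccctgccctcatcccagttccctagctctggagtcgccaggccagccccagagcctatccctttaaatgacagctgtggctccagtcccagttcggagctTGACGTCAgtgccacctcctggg
Klhl2 (minus strand): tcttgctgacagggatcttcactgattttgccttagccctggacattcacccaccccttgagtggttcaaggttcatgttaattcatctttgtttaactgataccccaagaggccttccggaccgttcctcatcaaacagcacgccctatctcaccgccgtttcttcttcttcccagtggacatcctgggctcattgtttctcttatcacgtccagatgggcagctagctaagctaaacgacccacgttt
Klhl23 (plus strand): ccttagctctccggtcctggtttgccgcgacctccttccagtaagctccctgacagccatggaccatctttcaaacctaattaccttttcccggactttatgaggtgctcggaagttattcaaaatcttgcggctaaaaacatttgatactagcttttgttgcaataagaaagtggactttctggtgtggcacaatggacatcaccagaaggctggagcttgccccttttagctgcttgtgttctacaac

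**Figure D2:**
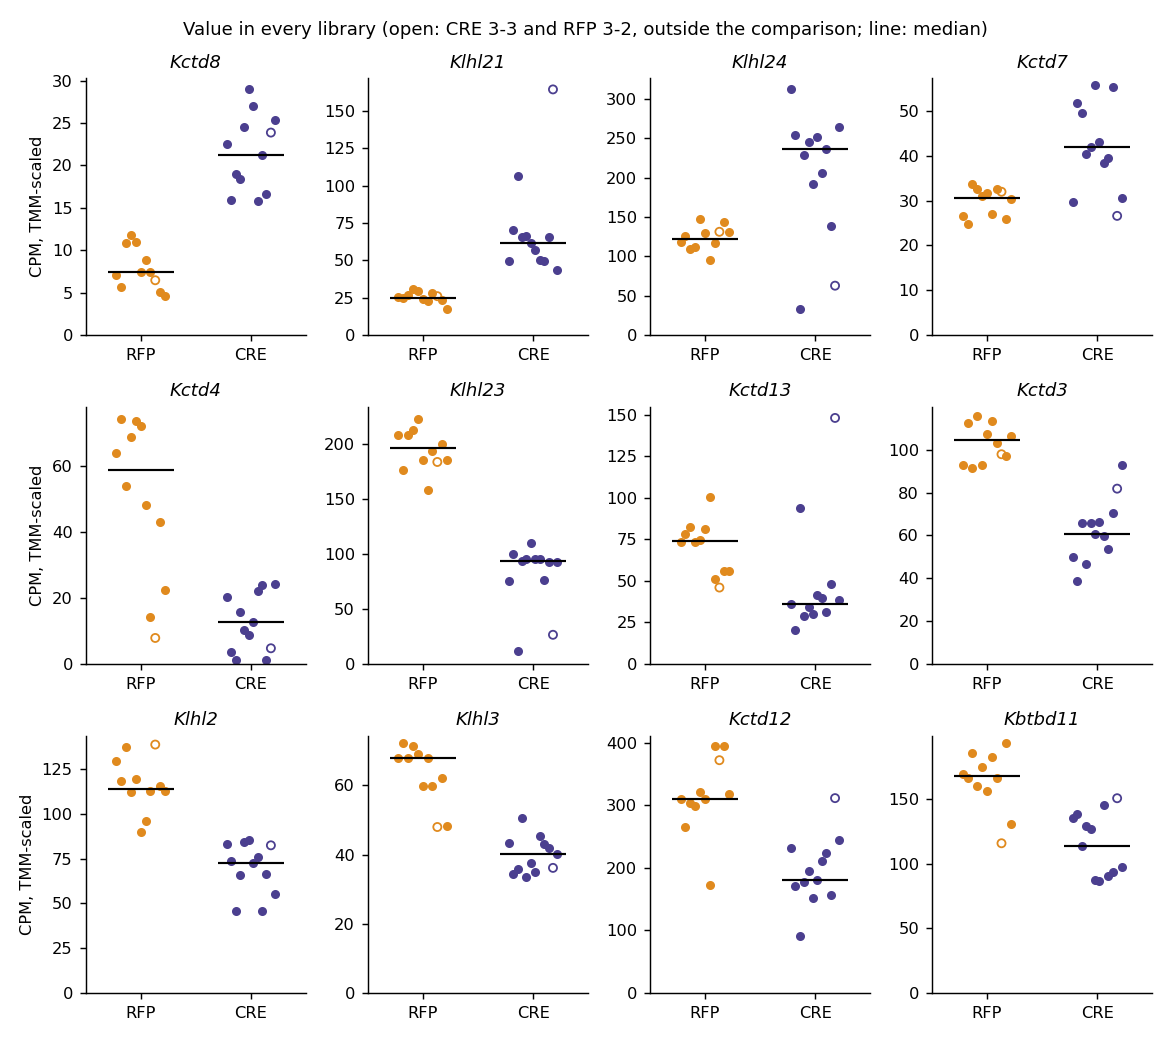
CPM in each library is plotted for 4 higher and 8 lower members, with RFP libraries left and CRE libraries right in each panel, filled points for the 21 libraries compared, open points for CRE 3-3 and RFP 3-2, and a line at the median of the filled points. *Kctd8*, *Klhl21*, *Klhl23* and *Klhl2* show no overlap of the filled points, and in *Klhl24*, *Klhl23* and *Kctd13* the filled point of CRE 1-3 and the open point of CRE 3-3 (62.8, 26.6 and 148 CPM) lie away from the other CRE libraries.

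Among the auxiliary subunits of the GABA-B receptor, Kctd8, Kctd12, Kctd12b and Kctd16, which bind the intracellular end of the receptor and set the kinetics of its response, 2 were higher and 2 lower in CRE neurons. *Kctd12*, the most abundant of them and known, as is *Kctd12b*, to speed desensitisation, had 173, 310 and 396 CPM in RFP neurons and 90.9, 181 and 245 CPM in CRE neurons. The fitted log2 change was -0.76 (standard error 0.15, edgeR adjusted p = 0.000261). The lowest RFP library was RFP 2-4 and the lowest CRE library CRE 1-3, and only 4 of the 11 CRE libraries lay below all RFP libraries. *Kctd12b*, a close relative of *Kctd12* on chromosome X, had 4.54, 12.1 and 18.5 CPM in RFP neurons and 4.50, 25.6 and 41.7 CPM in CRE neurons. For 9 of 11 CRE libraries the value was above all RFP libraries, the log2 fold change was 1.06 (standard error 0.30, edgeR adjusted p = 0.00829), and CRE 1-3 was at the low end. Without culture 2 the value was 0.93 and the adjusted p 0.167. *Kctd16* had 9.09, 17.2 and 27.3 CPM in RFP neurons and 6.13, 10.6 and 23.2 CPM in CRE neurons, groups that overlapped widely. The log2 fold change of *Kctd16* was -0.56 (standard error 0.21, edgeR adjusted p = 0.0426), and adjusted p-values were 0.175, 0.104 and 0.11 without culture 1, 2 and 3, 0.0744 with sums per culture and 0.0548 without a filter on low counts.

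Expressed per kilobase of exon, so that genes can be set beside each other, the 4 subunits together had 35.9, 60.9 and 78.9 CPM per kilobase in RFP neurons and 23.2, 46.0 and 57.6 in CRE neurons. *Kctd12* made up 79.6%, 83.9% and 88.5% of this sum in RFP neurons and 60.7%, 68.3% and 70.2% in CRE neurons. The share of *Kctd8* was 2.01%, 3.49% and 7.27% in RFP neurons and 9.19%, 12.8% and 24.0% in CRE neurons. Neither of these 2 shares overlapped between the groups of the comparison. RFP 2-4 and CRE 1-3, which stood apart as given above, had the lowest sums and the highest shares of *Kctd8* in their groups. *Kctd12b* had shares of 2.35%, 3.82% and 5.52% and then 3.11%, 11.3% and 14.5%, and *Kctd16* of 4.42%, 8.83% and 10.7% and then 4.44%, 7.25% and 17.3%, and these did overlap. As raw counts within a library, which need no scaling, there were 1.28, 2.34 and 5.14 counts of *Kctd8* for every 100 of *Kctd12* in RFP neurons and 7.46, 10.4 and 20.8 in CRE neurons. The highest of these were again those of RFP 2-4 and CRE 1-3. CRE 3-3 had 7.66 and RFP 3-2 had 1.74 such counts, but the share of *Kctd12* in CRE 3-3, 85.6%, lay within the range of RFP neurons, with *Kctd8* at 11.65%. These shares and ratios are a description of genes already tested above. *Gabbr1* and *Gabbr2*, the receptor subunits themselves, were looked up after the values of the members had been seen. *Gabbr1* had a log2 fold change of -0.23 (edgeR adjusted p = 0.0401) and *Gabbr2*, to which the auxiliary subunits bind, one of -0.71 (edgeR adjusted p = 0.00018), from 295, 361 and 432 CPM in RFP neurons to 126, 249 and 304 CPM in CRE neurons.

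**Figure D3:**
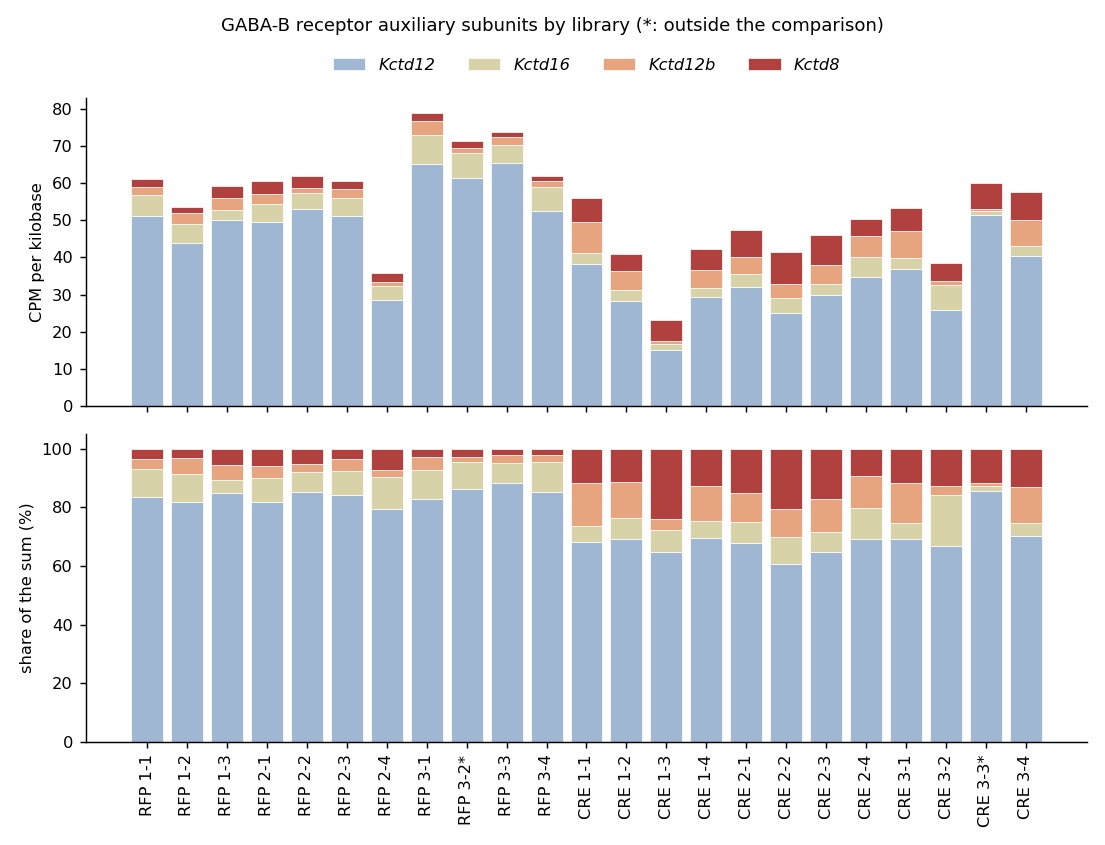
Bars stack the 4 auxiliary subunits of the GABA-B receptor in every library, as CPM per kilobase of exon above and as percent of their sum below, and an asterisk marks the 2 libraries outside the comparison. *Kctd12* takes 79.6% to 88.5% of the sum in the 10 RFP libraries and 60.7% to 70.2% in the 11 CRE libraries, and *Kctd8* takes 2.01% to 7.27% and 9.19% to 24.0%.

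Of the other Kctd groups, the RhoA adaptors are *Kctd10* and *Kctd13*, which lead the small GTPase RhoA to degradation by CUL3. *Kctd13* fell in CRE neurons, from 51.2, 74.1 and 100 CPM to 20.4, 35.9 and 94.1 CPM. Its log2 fold change was -0.87 (standard error 0.19, edgeR adjusted p = 0.00107), and 10 of 11 CRE libraries lay below all RFP libraries. The remaining one was CRE 1-3, and without the 4 libraries the value was -1.02 (edgeR adjusted p = 3.91e-07). Over all 23 libraries it was -0.54 and not called (edgeR adjusted p = 0.109), with CRE 3-3 at 148 CPM, and without culture 2 the adjusted p was 0.14. *Kctd13* shares 8.85% of its 50-base stretches with *Gm21984*. *Kctd10* was not called, at 17.5, 24.8 and 32.9 CPM in RFP and 21.7, 33.4 and 73.3 CPM in CRE neurons, with a log2 fold change of 0.44 (95% interval 0.10 to 0.77, edgeR adjusted p = 0.0548). It passed the threshold over all 23 libraries (0.54, edgeR adjusted p = 0.0242), with CRE 3-3 at 64.8 CPM, and in 3 of 15 alternative settings in all. The highest CRE library of the comparison was CRE 1-3, and the next highest had 36.2 CPM. Without the 4 libraries the log2 fold change of *Kctd10* was 0.27 (edgeR adjusted p = 0.101). Within cultures 1, 2 and 3 it was 1.01, 0.26 and -0.003. *Tnfaip1*, the third RhoA adaptor, has a symbol outside the rule and was called higher, at 0.63 (edgeR adjusted p = 4.28e-05).

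The KCTD5 clade, *Kctd2*, *Kctd5* and *Kctd17*, takes G protein beta-gamma subunits and other proteins to CUL3. *Kctd5* was lower, from 31.9, 51.5 and 61.9 CPM in RFP neurons to 31.2, 38.6 and 47.1 CPM in CRE neurons, with a log2 fold change of -0.35 (standard error 0.12, edgeR adjusted p = 0.026). This call was lost over all 23 libraries (-0.21, edgeR adjusted p = 0.278), without culture 1 (adjusted p = 0.08), without culture 2 (-0.21, adjusted p = 0.45), with sums per culture (adjusted p = 0.102) and without a filter on low counts (adjusted p = 0.0703). *Kctd2* had 24.5, 35.5 and 46.9 CPM in RFP and 14.6, 24.2 and 60.2 CPM in CRE neurons and was not called (-0.45, edgeR adjusted p = 0.0708). Its highest CRE library was CRE 1-3, the next highest had 31.3 CPM, and without the 4 libraries it was called lower (-0.58, edgeR adjusted p = 0.000978). Over all 23 libraries, with CRE 3-3 at 127.5 CPM, the value was -0.06 (edgeR adjusted p = 0.887). Exons of *Kctd2* overlap *Atp5pd* on the opposite strand over 472 bases. *Kctd17* had 80.3, 89.97 and 130 CPM in RFP and 71.6, 79.4 and 178 CPM in CRE neurons, with CRE 1-3 again the highest, and a log2 fold change of -0.12 in the comparison (edgeR adjusted p = 0.594) and -0.21 without the 4 libraries (edgeR adjusted p = 0.031). Over all 23 libraries the sign turned, at 0.13 (edgeR adjusted p = 0.659), with CRE 3-3 at 268 CPM.

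The KCASH proteins encoded by *Kctd6*, *Kctd11* and *Kctd21* suppress Hedgehog signalling by leading a histone deacetylase to CUL3. *Kctd11* was higher in CRE neurons but scarce, at 0.31, 1.78 and 3.12 CPM in RFP and 2.35, 3.87 and 9.95 CPM in CRE neurons. Its log2 fold change was 1.39 (standard error 0.37, edgeR adjusted p = 0.00593), with 7 of 11 CRE libraries above all RFP libraries. Within cultures 1, 2 and 3 it was 1.80, 0.44 and 2.35, and with counts summed per culture the adjusted p was 0.059. Without culture 1 it was 1.00 (edgeR adjusted p = 0.114). *Kctd6* had 27.4, 38.2 and 55.5 CPM in RFP and 25.1, 45.9 and 66.3 CPM in CRE neurons (log2 fold change 0.31, edgeR adjusted p = 0.139), and was called higher without the 4 libraries (0.35, edgeR adjusted p = 0.036). *Kctd21* had 19.6, 24.8 and 33.1 CPM and 16.5, 21.5 and 32.0 CPM, a log2 fold change of -0.18 (95% interval -0.44 to 0.09).

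The repressors of AP-2 transcription factors, *Kctd1* and *Kctd15*, were not called. *Kctd1* had 29.2, 36.7 and 49.7 CPM in RFP and 32.1, 38.1 and 73.4 CPM in CRE neurons, and the 95% interval of its log2 fold change ran from -0.10 to 0.45. *Kctd15* had 13.2, 19.5 and 28.0 CPM in RFP and 8.04, 19.4 and 40.5 CPM in CRE neurons, with an interval from -0.40 to 0.51.

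Called Kctd genes outside these groups were *Kctd3*, *Kctd4* and *Kctd7*. *Kctd4*, a gene of little known function on chromosome 14 from 76192449 to 76211641, had the largest change of all members. It stood at 14.1, 58.9 and 74.2 CPM in RFP neurons and at 1.23, 12.6 and 24.1 CPM in CRE neurons, with a log2 fold change of -2.04 (standard error 0.41, edgeR adjusted p = 0.000363). The groups overlapped, because RFP libraries of culture 3 were low, down to 14.1 CPM in RFP 3-1 and 7.91 CPM in RFP 3-2, which is outside the comparison. Within cultures 1, 2 and 3 the log2 fold change was -2.66, -2.31 and -0.70, and without culture 2 it was -1.81 (edgeR adjusted p = 0.0569). *Kctd3*, known as a partner of the pacemaker channel HCN3, had 91.7, 105 and 116 CPM in RFP and 38.9, 60.7 and 92.7 CPM in CRE neurons. On the log2 scale the change was -0.78 (standard error 0.12, edgeR adjusted p = 1.97e-05), and 10 of 11 CRE libraries were below all RFP libraries. *Kctd7*, mutated in a progressive myoclonic epilepsy, had 24.8, 30.6 and 33.7 CPM in RFP and 29.7, 42.0 and 55.7 CPM in CRE neurons. This was a log2 fold change of 0.53 (standard error 0.12, edgeR adjusted p = 0.00173), with values of 0.57, 0.53 and 0.49 within the 3 cultures, and without culture 2 the adjusted p was 0.0559.

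The Klhl adaptors known from dividing cells act on mitotic kinases and on katanin: *Klhl9*, *Klhl13* and *Klhl21* on Aurora B, *Klhl18* on Aurora A, *Klhl22* on PLK1 and *Klhl42* on katanin. Of these 6, *Klhl21* and *Klhl18* were higher and *Klhl13* lower. In the same libraries all 6 markers of dividing cells were lower, as given above, and their part in these values was not tested. *Klhl18* had 30.4, 39.9 and 53.5 CPM in RFP and 44.7, 51.4 and 65.1 CPM in CRE neurons, a log2 fold change of 0.40 (standard error 0.11, edgeR adjusted p = 0.00659). Over all 23 libraries its adjusted p was 0.0586, and without culture 3 it was 0.0779. *Klhl13* had 52.6, 77.1 and 101 CPM in RFP and 7.77, 57.4 and 76.1 CPM in CRE neurons, with CRE 1-3 lowest and 39.1 CPM next. Its log2 fold change was -0.58 (standard error 0.22, edgeR adjusted p = 0.0419), and the adjusted p was 0.246 without culture 2, 0.0709 without culture 3, 0.0623 without a filter on low counts and 0.052 with culture as a block. *Klhl9* had 159, 218 and 271 CPM in RFP and 115, 231 and 286 CPM in CRE neurons, so that the 95% interval of its log2 fold change ran from -0.29 to 0.21. For *Klhl22* these were 81.3, 91.8 and 112 CPM and 70.5, 88.1 and 111 CPM, with an interval from -0.24 to 0.14. *Klhl42* had 45.3, 58.4 and 73.1 CPM in RFP and 36.4, 65.6 and 89.0 CPM in CRE neurons, was not called (0.21, edgeR adjusted p = 0.222), and was called higher without the 4 libraries (0.25, edgeR adjusted p = 0.0421).

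Members known from actin, kainate receptors or calcium channels of neurons are *Klhl1*, *Klhl2*, *Klhl17*, *Klhl20* and *Klhl24*. Beside *Klhl2*, which fell, *Klhl24* rose. *Klhl24*, first known as a protein that binds kainate receptors and alters their current, had 95.1, 122 and 148 CPM in RFP neurons and 33.5, 236 and 312 CPM in CRE neurons. CRE 1-3 was lowest and 138 CPM was next, and 9 of 11 CRE libraries were above all RFP libraries. Fitted over all cultures, the log2 fold change was 0.79 (standard error 0.21, edgeR adjusted p = 0.0063), and 0.87 without the 4 libraries (edgeR adjusted p = 1.43e-07). Without culture 2 it was 0.76 (edgeR adjusted p = 0.142), and CRE 3-3 stood at 62.8 CPM. *Klhl17* (actinfilin), which links kainate receptors to CUL3, had 18.2, 36.0 and 48.1 CPM in RFP and 21, 37.1 and 61.2 CPM in CRE neurons (95% interval -0.24 to 0.47). Of its 50-base stretches, 30.4% are shared with *Plekhn1*, whose exons overlap it on the same strand, so its counts are uncertain. *Klhl20* had 14.5, 27.4 and 31.6 CPM in RFP and 16.1, 27.9 and 35.2 CPM in CRE neurons (95% interval -0.35 to 0.25). *Klhl1* did not meet the count rule, with 10 counts in 7 libraries.

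*Klhl3* is a close relative of *Klhl2* and the adaptor through which WNK kinases are removed in the kidney. It had 48.2, 67.9 and 72.3 CPM in RFP and 33.6, 40.1 and 50.7 CPM in CRE neurons. Its log2 fold change was -0.71 (standard error 0.10, edgeR adjusted p = 5.51e-06), and 10 of 11 CRE libraries were below all RFP libraries, a separation broken only by RFP 3-4 and CRE 1-4. Both genes of this pair were lower, with log2 fold changes of -0.97, -0.41 and -1.03 for *Klhl2* and -0.78, -0.84 and -0.45 for *Klhl3* within cultures 1, 2 and 3. *Klhl36* had 2.06, 5.54 and 8.22 CPM in RFP and 4.79, 8.92 and 23.7 CPM in CRE neurons, with CRE 1-3 highest and 13.6 CPM next. The log2 fold change of *Klhl36* was 0.89 (standard error 0.29, edgeR adjusted p = 0.0191), with 1.65, 0.14 and 1.07 within the cultures and 0.46 without culture 1 (edgeR adjusted p = 0.306). The call was also lost without culture 3 (edgeR adjusted p = 0.0994) and with sums per culture (edgeR adjusted p = 0.0797). It was kept without the 4 libraries that stood apart (0.76, edgeR adjusted p = 0.0196). *Klhl34* was called lower and named after its values were seen, at 9.94, 16.6 and 27.9 CPM in RFP and 5.61, 8.13 and 15.4 CPM in CRE neurons (-0.84, standard error 0.21, edgeR adjusted p = 0.00251). It was not called over all 23 libraries (-0.57, edgeR adjusted p = 0.0914), where CRE 3-3 had 35.5 CPM, nor without culture 2 (edgeR adjusted p = 0.153). Its only exon of 1935 bases lies wholly within an exon region of *Cnksr2* on the opposite strand, and the strand setting of the counting is not given in the sources used here. *Cnksr2*, a scaffold protein of synapses with 95.4, 117 and 146 CPM in RFP neurons, was lower in CRE neurons at a log2 fold change of -1.45 (edgeR adjusted p = 2.36e-07), and without strand the reads of the 2 genes cannot be told apart.

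Among the Kbtbd genes, *Kbtbd11* was lower in each of the 15 alternative settings, with 131, 168 and 193 CPM in RFP and 86.3, 114 and 146 CPM in CRE neurons. The fitted change was a log2 value of -0.60 (standard error 0.11, edgeR adjusted p = 0.000159), and 8 of 11 CRE libraries were below all RFP libraries. *Kbtbd6* and *Kbtbd7* form one adaptor that removes TIAM1, an activator of the GTPase RAC1. *Kbtbd7* had 44.4, 86.1 and 102 CPM in RFP and 19.8, 61.4 and 74.5 CPM in CRE neurons. This log2 fold change was -0.56 (standard error 0.17, edgeR adjusted p = 0.0143), with RFP 2-4 and CRE 1-3 lowest in their groups, and without culture 3 the adjusted p was 0.106. *Kbtbd6* had 1.41, 2.24 and 6.49 CPM in RFP and 0.00, 2.08 and 3.72 CPM in CRE neurons and was not called (-0.73, edgeR adjusted p = 0.298). The 2 genes lie next to each other on chromosome 14 and share 24.7% of the 50-base stretches of *Kbtbd6* and 16.2% of those of *Kbtbd7*, so a part of their reads could fall to either. *Kbtbd2*, which controls the regulatory subunit of PI3 kinase, was not called (0.40, 95% interval 0.04 to 0.76, edgeR adjusted p = 0.105) although 8 of 11 CRE libraries were above all RFP libraries. CRE 1-3 was its lowest library at 16.8 CPM against 63.4 for the next, and without the 4 libraries it was called higher (0.49, edgeR adjusted p = 0.000123). *Kbtbd2* was named after its values were seen.

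The muscle members were near the limit of detection. *Klhl40* had 0.41, 2.03 and 4.76 CPM in RFP and 0.09, 1.24 and 4.63 CPM in CRE neurons and was not called (-0.59, edgeR adjusted p = 0.36), and *Klhl30*, *Klhl31*, *Klhl38*, *Klhl41*, *Kbtbd12* and *Kbtbd13* did not meet the count rule, with at most 10 counts in any library. The other genes below the rule were *Kctd14*, *Kctd19*, *Klhl1*, *Klhl6*, *Klhl10* and *Klhl35*, none with 10 counts in more than 7 libraries. Just inside the rule were *Klhl33* with 11 libraries, *Klhl14* with 13, *Kbtbd6* with 17 and *Klhl40* with 18, and just outside *Klhl1* and *Kctd14* with 7 each. *Klhl33* and *Klhl14* had log2 fold changes of 1.36 and 1.16 with standard errors of 0.67 and 0.71 and were not called. Within cultures 1, 2 and 3 the value of *Klhl14* was -0.31, 4.01 and 0.62. *Klhl14* was scarce, at 0.00, 0.52 and 3.64 CPM in RFP and 0.00, 3.04 and 6.725 CPM in CRE neurons.

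Members not described so far and not called were *Kbtbd3*, *Kbtbd4*, *Kbtbd8*, *Kctd9*, *Kctd18*, *Kctd20*, *Klhl4*, *Klhl5*, *Klhl7*, *Klhl8*, *Klhl11*, *Klhl12*, *Klhl15*, *Klhl25*, *Klhl26*, *Klhl28*, *Klhl29* and *Klhl32*. Their log2 fold changes ran from -0.67 in *Kbtbd8*, a gene of ribosome biogenesis control in the neural crest, to 0.67 in *Kctd9*. Without the 4 libraries both passed the threshold, *Kbtbd8* lower (-0.61, edgeR adjusted p = 0.0261) and *Kctd9* higher (0.73, edgeR adjusted p = 0.0197), and *Klhl26* became a lower call (-0.27, edgeR adjusted p = 0.0135). *Kctd20*, at 109, 131 and 149 CPM in RFP and 101, 127 and 137 CPM in CRE neurons, had the narrowest 95% interval of its log2 fold change, from -0.27 to 0.06. *Klhl32* was closest to 0, at 0.01 (95% interval -0.21 to 0.23).

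In RFP neurons the median level per kilobase of exon ran from 52.2 CPM per kilobase in *Klhl9* and 51.1 in *Kctd12* down to 0.12 in *Klhl14* and 0.09 in *Klhl33*. *Klhl9* and *Kctd12* overlapped in range, 38.2 to 64.9 and 28.6 to 65.3, and were followed by *Klhl23* at 25.5, *Kctd13* at 25.0 and *Kbtbd11* at 23.6, whose ranges overlapped one another. The range of *Kctd12* reached those of *Klhl23* (20.5 to 28.8) and *Kctd13* (17.25 to 33.8), and that of *Klhl9* lay above them. In CRE neurons *Klhl9* was at 55.4 CPM per kilobase, with a range of 27.6 to 68.5, and *Kctd12* at 29.8, with a range of 15.0 to 40.4. The order of the members was largely kept, with a Spearman's rho of 0.884 between the medians of both groups over 56 members. The log2 fold change had a rho of -0.358 with the mean log2 level of both groups, 0.032 with GC content and 0.034 with exon length, over the same 56 genes and from the same libraries, given as a description. Over all genes with a value these were -0.124, 0.096 and -0.048.

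**Figure D4:**
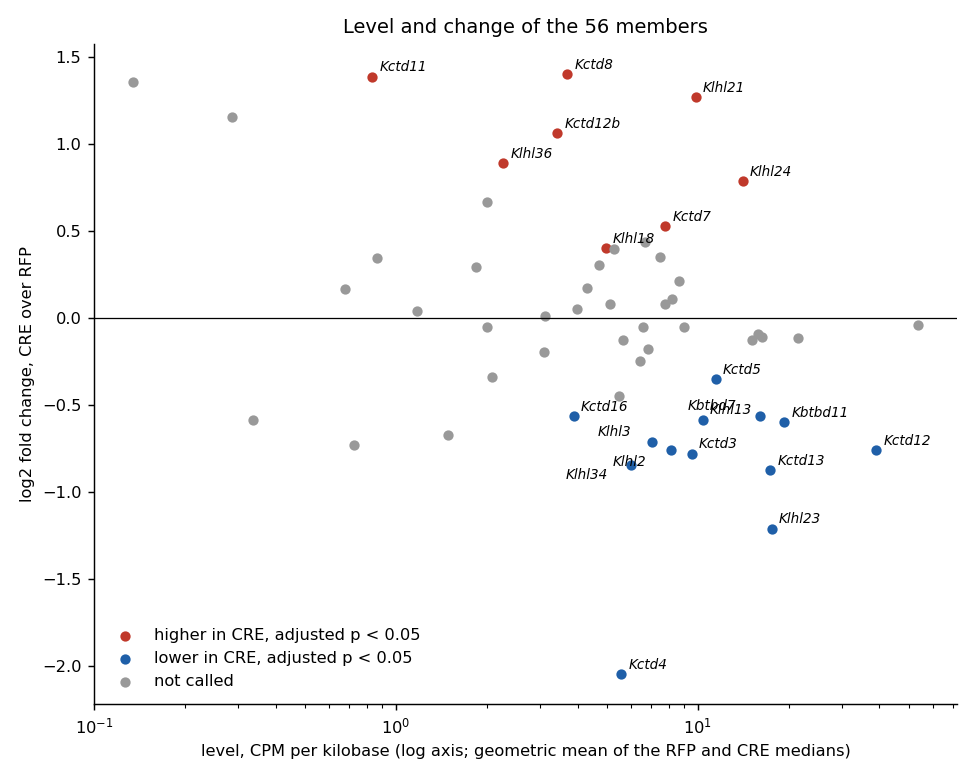
The log2 fold change of each of the 56 members is plotted against its level in CPM per kilobase of exon on a log axis, and called members are coloured and named. *Kctd12*, at 51.1 CPM per kilobase in RFP neurons the most abundant of the called members, was lower, while *Kctd11*, the least abundant of the called members, was higher at a median of 0.57 CPM per kilobase in RFP neurons.

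Within the 3 cultures taken one by one, 32 of the 56 members (57.1%) had the same sign in each, against 55.8% of all genes. All 21 called members were among them, but their calls came from the same libraries, so this is a description and no independent test. A test of whether the change differed between cultures called 0 members and 1 gene of all tested (0.0069%), and 3 members, *Kctd11*, *Klhl14* and *Klhl2*, had an unadjusted p under 0.05 (edgeR), against 4.11% of all genes. Among the called members the values spread widest in *Kctd4*, *Kctd11* and *Klhl36*.

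**Figure D5:**
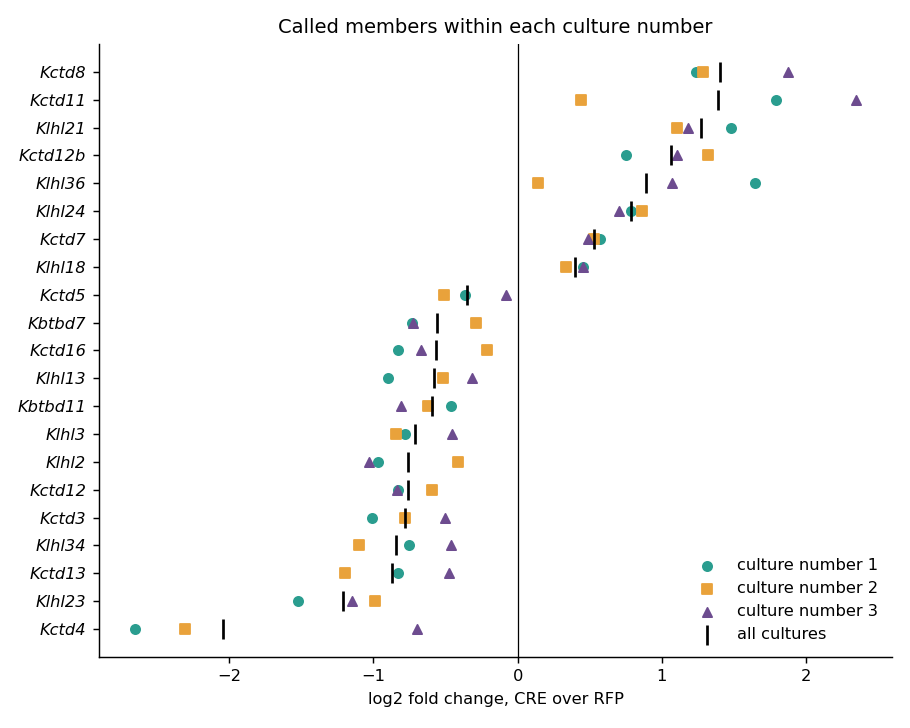
For each of the 21 called members the log2 fold change within culture numbers 1, 2 and 3 is plotted as a symbol and the value over all cultures as a bar. All symbols of a member lie on the same side of 0, from -2.66 to -0.08 for the lower members and from 0.14 to 2.35 for the higher ones.

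Other BTB adaptors of CUL3, listed from general knowledge, showed 2 of 24 higher (*Tnfaip1*, *Abtb1*) and 6 lower (*Enc1*, *Ipp*, *Spop*, *Btbd3*, *Btbd6*, *Lztr1*), with a median log2 fold change of -0.06. Among all genes tested, 16.4% were higher and 13.8% lower. *Enc1*, a Kelch protein of neurons, had the highest level of these adaptors, at 843, 1168 and 1580 CPM in RFP and 491, 605 and 734 CPM in CRE neurons (-1.01, edgeR adjusted p = 5.05e-08), and its groups did not overlap. Over all genes, 2.08% were lower in CRE neurons without overlap. *Keap1*, the adaptor of NRF2, had 48.5, 63.8 and 79.9 CPM in RFP and 41.9, 54.3 and 143 CPM in CRE neurons, with a log2 fold change of -0.03 (edgeR adjusted p = 0.919). Its median was thus lower in CRE neurons while its highest value was a CRE library, and CRE 3-3, outside the comparison, had 165.7 CPM. In the core of the ligase and of neddylation, 2 of 8 genes were lower and none higher, beside the same shares of all genes (13.8% and 16.4%). *Cul3* had 57.5, 124 and 135 CPM in RFP and 43.9, 120 and 158 CPM in CRE neurons (-0.04, edgeR adjusted p = 0.894). *Rbx1* was lower, at 82.3, 95.6 and 104 CPM in RFP and 27.9, 68.2 and 99.1 CPM in CRE neurons (-0.53, edgeR adjusted p = 0.00345), and *Nedd8* was the other, at -2.44 (edgeR adjusted p = 6.98e-11).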

How the data were processed

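The authors sequenced Illumina Stranded mRNA libraries, aligned them with STAR 2.7.8a to GRCm39 (Ensembl release 110) and deposited whole-number read counts per gene from featureCounts 1.5.0-p1 for each of 23 libraries, without normalization. Its strand and multi-mapping settings are not given in the sources used here. Names, positions and exon lengths came from the GENCODE annotation of GRCm39, which named 56323 of 56941 genes. Counts were compared in R 4.3.3 with edgeR 4.0.16 (filterByExpr, TMM, robust quasi-likelihood fit, Benjamini-Hochberg over all genes tested), without a block, and with DESeq2 1.42.0 as an alternative. The script was tested on simulated counts. CPM used TMM factors over 14382 genes in 23 libraries, and CPM per kilobase the union of exons. Intervals are at 95% by a normal approximation around the log2 fold change, with standard errors derived from the F statistic of the edgeR test. They are approximate and can be narrower than the p-value of that test implies. Named with values were the 8 higher and 8 lower calls of smallest p, all members of the role lists and the 5 highest levels in RFP. Members and lists were chosen with earlier results of these data known. The methods text names CRE 1-3 and CRE 3-3 as removed, and that set is an alternative. Intervals cover the spread between libraries.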

Additional observations from a re-analysis of the deposited data

Results flagged for a closer look

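A library was set apart when its gap to the nearest other library of its group, divided by the range of the group, passed Dixon's 95% critical value, 0.466 for the 10 RFP libraries. Of 34 members examined in this group 3 passed, where chance alone gives about 1 in 20, and the 11 CRE libraries were too many for this rule. *Klhl20* was lowest in RFP 2-4, at 14.5 CPM against 24.8 for the nearest library, and *Klhl22* was highest in RFP 2-4, at 112 CPM against 96.5. RFP 2-4 had a mitochondrial share of 3.44% and a rho of 0.415 with the GC content of genes, and whether these bear on both values was not tested. *Klhl3* was lowest in RFP 3-4, at 48.2 CPM against 59.9 for the nearest, and among the 10 RFP libraries of the comparison it alone fell into the range of the CRE libraries. RFP 3-2, outside the comparison, was at 47.97 CPM and fell there too.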

How the results depend on the processing

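Over 15 alternative settings, 8 of the 21 called members were called in each, 2 higher and 6 lower, 13 lost their call in at least 1, 11 others gained one, and no called member changed sign. Without culture 2, which leaves 55 members tested, only 5 were called higher and 7 lower, beside 8.89% and 5.45% of all genes. Without culture 1 the counts were 7 and 12, beside 13.3% and 12.7%. Without culture 3 they were 6 and 10, beside 11.8% and 11%. The median log2 fold change of the members was -0.009 without culture 2, -0.091 without culture 3, -0.002 with each library's GC trend removed and 0.007 with that and culture as a replicate block, where its standard deviation over cultures was 0.034. Same-numbered cultures correlated at 0.037, 0.041 and 0.133 in their deviations from the group means, and not every culture correlated best with its own number. With so few cultures these values cannot decide whether the number pairs the samples, and the comparison was made without a block. With culture number as a replicate block 8 members were higher and 12 lower, beside 15.9% and 13.5% of all genes. The lost call was *Klhl13*. With rep number as a replicate block the counts were 9 and 13, beside 15.4% and 13.9%. DESeq2 gave 9 and 13, beside 18% and 15.1% of all genes, and size factors in place of TMM 8 and 13, beside 16.5% and 13.6%. Without a filter on low counts there were 8 and 10, beside 13.4% and 7.81%. Sums per culture gave 8 and 13, beside 11.8% and 11%, with 4 calls lost and 4 gained. The libraries left by the methods text gave 12 and 16, beside 20.2% and 17.8% of all genes. With the GC trend removed there were 12 and 14, beside 19.5% and 17.5%, and with the block 12 and 14, beside 19.5% and 17.9%. The GC trend removed and the 4 libraries left out, a setting chosen after seeing the data, gave 11 and 15, beside 19.7% and 19.2%. Levels per kilobase of the 5 most abundant members moved by less than their spread with library totals in place of TMM factors. Depth was lowest for *Klhl33* and *Klhl14*, with medians of 9 and 17 counts per library, and its part in their standard errors was not tested.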
